A study of Rattus norvegicus with 4 samples.

Results

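Expression was described for 10 rat genes that encode neuronal tubulins, microtubule-associated proteins and growth cone proteins: Tubb3, Tubb2b, Map2, Mapt, Dcx, Dclk1, Gap43, Stmn2, Stmn3 and Crmp1. They were chosen by name, with earlier results of these data known. All 10 had probe sets on the Affymetrix rat array, 20 in all, out of 14217 named genes. Of the 10 genes, 8 lay above a floor of log2 = 5 on all 4 arrays, and Dcx and Stmn2 lay below it on all 4. The floor is a chosen limit that stands for that of specific signal, and the 8 genes above it count as measured.

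The cells were hippocampal neural progenitors of the Fisher 344 rat, which divide in culture and can give rise to neurons and glia. There were 4 groups of 1 array each: DMSO, the solvent, at 0.1% as negative control; KHS101 (a synthetic compound tested here on neural progenitors) at 1.7 uM; KHS101 at 5 uM; and retinoic acid at 1 uM together with forskolin, an activator of adenylyl cyclase, as positive control. Early-passage cells (at most 6 passages) were kept with the compounds for 4 days in N2-supplemented medium, after plating at 1000 cells per square centimetre. These conditions and the DMSO percentage come from a protocol that covers several experiments; they do not state the concentration of forskolin, and the design text lists the positive control as retinoic acid without it. No group had a replicate, so no test could be run, and having 4 arrays limits how precise any value is.

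Microtubules are polymers of alpha- and beta-tubulin that fill the axon and dendrites. Young neurons make particular beta-tubulins together with proteins that stabilise microtubules (tau, MAP2, doublecortin), proteins that free tubulin from them (stathmins), and proteins of the growth cone, the motile tip of a growing axon (GAP-43, CRMP). These genes are often used as signs of neuronal differentiation, but several of them are also expressed outside neurons: Gap43, Map2 and Mapt in cells of the oligodendrocyte lineage, and Dclk1 in progenitors.

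A few members differed from DMSO by at least 2-fold in a treatment, and the other measured members stayed short of that chosen limit. Dclk1, a doublecortin-like kinase that binds microtubules, was 4.61-fold higher with KHS101 at 5 uM, 4.92-fold at 1.7 uM and 11.2-fold with retinoic acid and forskolin. Mapt, which encodes tau, was 2.10-fold and 2.13-fold higher with KHS101, and Tubb3, the neuronal class III beta-tubulin, was 2.20-fold higher with retinoic acid and forskolin. Gap43 was the member furthest below DMSO, 1.89-fold lower with retinoic acid and forskolin, under the 2-fold limit. Differences below are between log2 values, and a difference of 1 or more in size, which is 2-fold, counted as a call. In RNA from whole cultures, fewer cells of a type and less RNA per cell cannot be told apart.

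**Figure D1:**
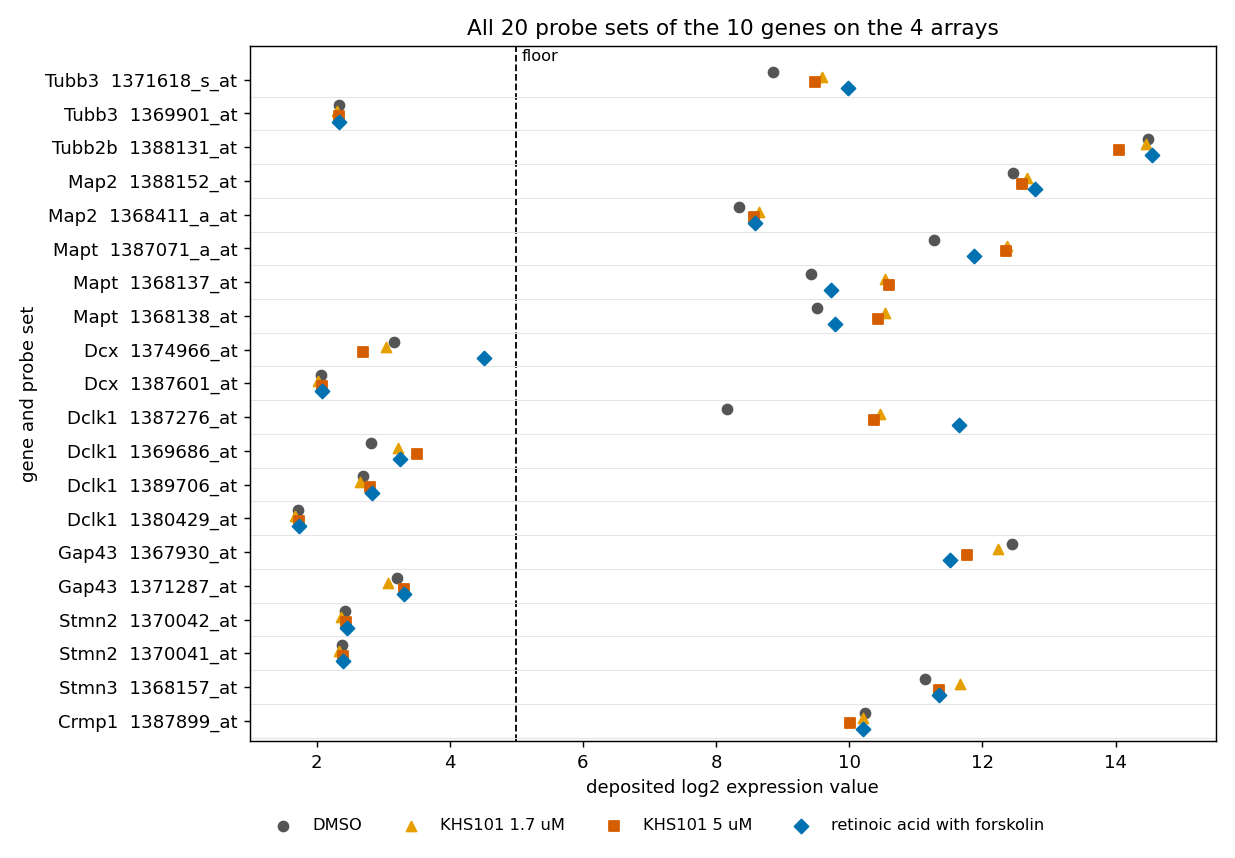
Deposited log2 value (horizontal axis) of all 20 probe sets of the 10 genes (rows), with 1 symbol for each of the 4 arrays; the dashed line is the floor of log2 = 5. The 9 probe sets left of the line include all of Dcx and Stmn2; on the Dclk1 probe set 1387276_at the DMSO array sits at 8.17 and the others between 10.37 and 11.65.

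Members were called in equal number in each comparison with DMSO. With KHS101 at 5 uM, 2 of the 8 measured members were higher and 0 lower, beside 6.16% of 8543 measured genes higher and 8.10% lower. With KHS101 at 1.7 uM, 2 of 8 were higher and 0 lower, beside 4.36% and 4.27% of 8533 genes. With retinoic acid and forskolin, 2 of 8 were higher and 0 lower, beside 4.34% and 3.15% of 8535 genes. The median difference of the 8 members was 0.18, 0.37 and 0.27 in this order, and that of all measured genes was 0.00, -0.01 and -0.03. These comparisons share the DMSO array, and a count of 2 genes out of 8 carries little information on the set.

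The scaling of the arrays bears on the calls near 2-fold. When each array was centred on the median level of 8 reference genes, the median of all measured genes moved to -0.26, -0.17 and 0.12, and the shares called became 4.10% higher and 12.2% lower, 3.36% and 6.14%, and 6% and 1.9%. The 8 reference genes themselves had median differences from DMSO of -0.04, -0.03 and 0.07 on the values as deposited. After the centring, Mapt was 0.81 above DMSO with KHS101 at 5 uM and 0.93 at 1.7 uM, short of 2-fold, and relative to the moved medians its differences were 1.06 and 1.10. The calls of Dclk1 and Tubb3 were the same under this centring. Another scaling, added after the data were seen, centred each array on the median difference of the reference genes. Under it Mapt stayed past 2-fold, 1.05 above DMSO with KHS101 at 5 uM and 1.09 at 1.7 uM.

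**Figure D2:**
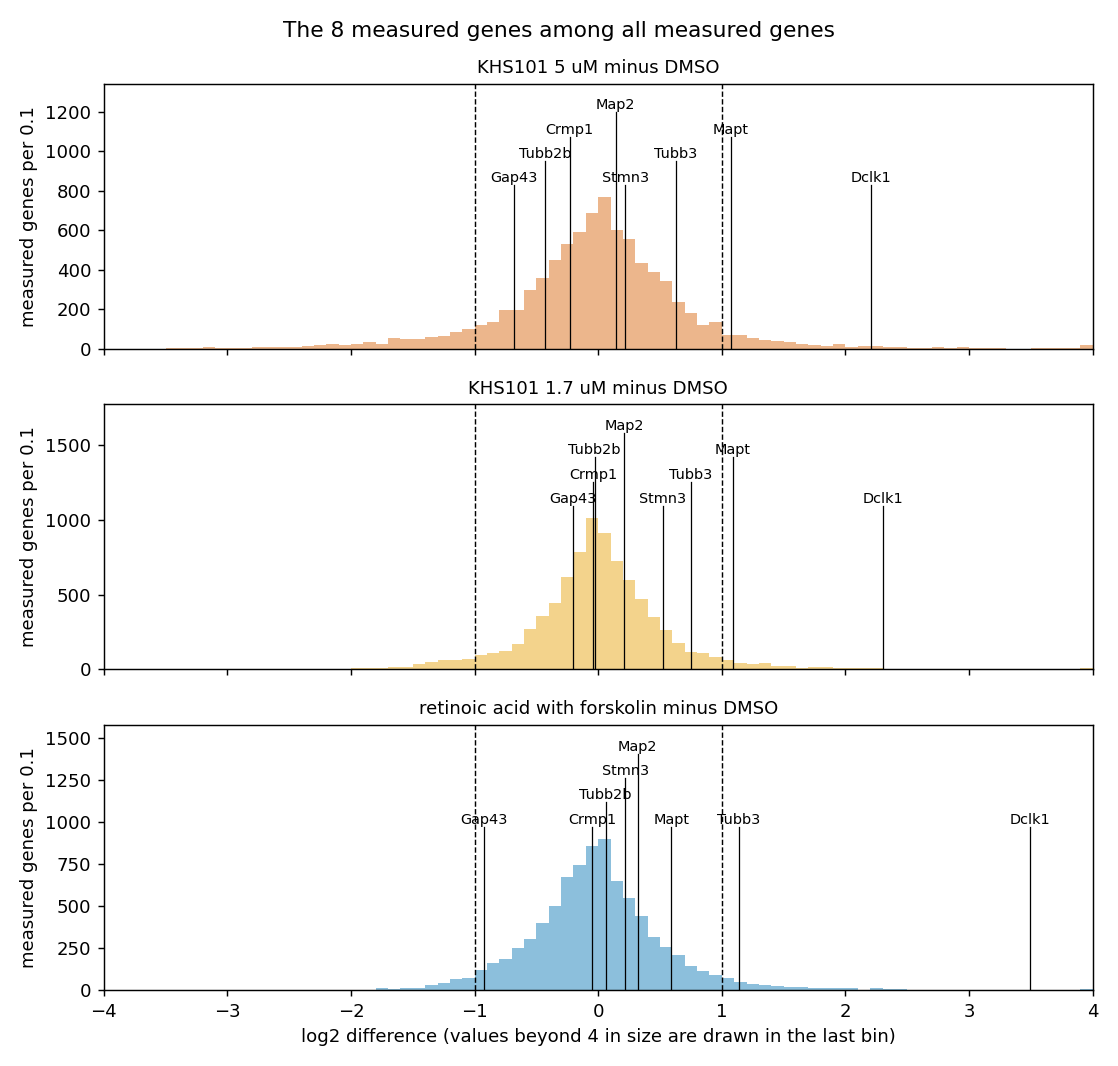
Number of measured genes (vertical axis) by log2 difference from DMSO (horizontal axis) for the 3 treatments, with vertical lines at the values of the 8 measured members and dashed lines at 2-fold. Dclk1 lies far right in each panel (2.21, 2.30 and 3.49), whereas most members lie within the bulk of the genes.

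The start of Dclk1 and those of both beta-tubulin members are shown because Dclk1 and Tubb3 were the members called with retinoic acid and forskolin, while Tubb2b, a close relative of Tubb3, was not. Each line gives the 250 bases before the RefSeq start of the gene (build GRCr8), read 5′ to 3′ on the gene's strand. Capitals mark the short cAMP response motif TGACG, which reads CGTCA where it lies on the opposite strand. The windows are Dclk1 at chr2:141782634-141782883, Tubb3 at chr19:68365437-68365686 and Tubb2b at chr17:30952836-30953085, all on the plus strand.
Dclk1: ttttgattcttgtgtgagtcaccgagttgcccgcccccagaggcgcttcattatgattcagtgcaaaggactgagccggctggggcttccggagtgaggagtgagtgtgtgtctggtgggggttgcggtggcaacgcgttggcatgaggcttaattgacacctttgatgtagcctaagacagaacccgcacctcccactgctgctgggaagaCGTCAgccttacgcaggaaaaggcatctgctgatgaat
Tubb3: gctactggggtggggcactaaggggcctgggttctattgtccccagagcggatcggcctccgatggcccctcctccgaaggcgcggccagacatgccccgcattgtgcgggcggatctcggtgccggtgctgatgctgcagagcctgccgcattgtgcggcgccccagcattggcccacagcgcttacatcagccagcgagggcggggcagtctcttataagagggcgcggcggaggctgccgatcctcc
Tubb2b: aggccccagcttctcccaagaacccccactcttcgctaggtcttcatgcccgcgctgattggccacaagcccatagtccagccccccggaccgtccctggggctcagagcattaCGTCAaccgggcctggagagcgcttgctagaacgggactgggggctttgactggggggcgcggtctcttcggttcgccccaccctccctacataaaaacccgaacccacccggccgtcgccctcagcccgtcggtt

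RefSeq promoter windows were at hand for 7 of the 10 members. The motif TGACG, searched on both strands, was in the windows of Dclk1, Tubb2b and Crmp1, 3 of 7, and in 18.2% of all 33469 promoters. In Dclk1 it lay 38 to 34 bases before the start, in Tubb2b 136 to 132 and in Crmp1 154 to 150. The longer element TGACGTCA, which contains TGACG, was in 0 of 7 and 1.59% of all promoters. The nuclear receptor core AGGTCA was in 0 of 7 and 14.1%, and the E-box CAGCTG was in 0 of 7 and 12%. Of the 3 genes with the short motif, Dclk1 was called with retinoic acid and forskolin and the others were within 0.06 of DMSO on the log2 scale. These matches describe letters in a window, and the cells may use other start sites.

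Among the tubulins, Tubb3 lay at log2 8.85 in DMSO, 9.59 with KHS101 at 1.7 uM, 9.48 at 5 uM and 9.98 in the positive control on probe set 1371618_s_at. DMSO was the lowest array and retinoic acid with forskolin the highest, and KHS101 at 5 uM minus 1.7 uM gave -0.11. Against DMSO the differences were 0.75, 0.63 and 1.14, so retinoic acid with forskolin alone passed 2-fold; 278 of 8535 measured genes, Tubb3 among them, were at least that far above DMSO. The second Tubb3 probe set, 1369901_at, was between 2.31 and 2.34 on all 4 arrays, under the floor. By the array's naming, the ending _s_at marks a probe set that can match transcripts of more than 1 gene, and tubulins share much of their coding sequence. The mean over both probe sets, which counts the second at the floor, put Tubb3 at 0.57 with retinoic acid and forskolin, below 2-fold.

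Tubb2b, a beta-tubulin of migrating young neurons, had log2 values of 14.48 in DMSO, 14.45 with KHS101 at 1.7 uM, 14.05 at 5 uM and 14.54 in the positive control. The KHS101 5 uM array was the low value, with a difference of -0.43 from DMSO, and the other arrays lay within 0.09 of each other. No comparison of Tubb2b passed 2-fold.

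Map2 encodes the microtubule-associated protein of dendrites. Its probe set 1388152_at read 12.46 in DMSO, 12.67 with KHS101 at 1.7 uM, 12.60 at 5 uM and 12.79 in the positive control, and 1368411_a_at read 8.35, 8.64, 8.57 and 8.58 in the same order. DMSO was the lowest array on both probe sets. The differences from DMSO, between 0.14 and 0.32, were small, and that of KHS101 at 5 uM turned to -0.12 when the arrays were centred on the reference genes.

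Mapt encodes tau, the microtubule-associated protein of axons, and had 3 probe sets above the floor, more than any other member. On 1387071_a_at it read 11.28 in DMSO, 12.37 with KHS101 at 1.7 uM, 12.35 at 5 uM and 11.87 in the positive control. On 1368137_at the values were 9.42, 10.54, 10.60 and 9.72, and on 1368138_at they were 9.52, 10.53, 10.43 and 9.78. All 3 probe sets put DMSO lowest, retinoic acid with forskolin next and the KHS101 arrays highest. Above DMSO they gave 1.09, 1.12 and 1.01 for KHS101 at 1.7 uM, and 1.07, 1.18 and 0.91 for 5 uM, where the last stayed short of 2-fold. For retinoic acid with forskolin they gave 0.59, 0.31 and 0.26. At 1.7 uM, 316 of 8533 measured genes were at least as far above DMSO as Mapt on 1387071_a_at, Mapt included. The same count at 5 uM was 476 of 8543. Since these probe sets read 1 RNA on 1 array, their spread says nothing of that between cultures.

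Doublecortin, encoded by Dcx, binds microtubules of migrating neuroblasts. Its probe set 1374966_at read 3.16 in DMSO, 3.05 with KHS101 at 1.7 uM, 2.70 at 5 uM and 4.51 in the positive control, and 1387601_at was between 2.02 and 2.08. All of these values lie under the floor, and their order was given no meaning.

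Dclk1, which joins a doublecortin-type microtubule-binding region to a kinase in its long form, had the widest range of the 10 genes. On probe set 1387276_at it read 8.17 in DMSO, 10.46 with KHS101 at 1.7 uM, 10.37 at 5 uM and 11.65 in the positive control. All treated arrays stood above DMSO, the KHS101 arrays lay side by side, and retinoic acid with forskolin was the highest. With retinoic acid and forskolin the difference of 3.49 was matched or exceeded by 10 of 8535 measured genes, Dclk1 included. The same count was 60 of 8533 genes for the 2.30 of KHS101 at 1.7 uM and 107 of 8543 for the 2.21 of 5 uM. The other 3 Dclk1 probe sets, 1369686_at, 1389706_at and 1380429_at, lay between 1.68 and 3.51 on all arrays. The result therefore rests on 1 of 4 probe sets. Counting the others at the floor, the mean over all 4 was 0.55 (KHS101 5 uM), 0.57 (1.7 uM) and 0.87 (retinoic acid with forskolin) above DMSO, under 2-fold each time. Dclk1 makes several transcripts, and which of them each probe set detects was not examined.

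Gap43, a membrane protein of the growth cone and a substrate of protein kinase C, read 12.44 in DMSO, 12.24 with KHS101 at 1.7 uM, 11.77 at 5 uM and 11.52 in the positive control on 1367930_at. DMSO was the highest array. The differences of -0.20, -0.68 and -0.92 stayed short of 2-fold, and 374 of 8535 measured genes lay at least as far below DMSO as Gap43 with retinoic acid and forskolin. The second probe set, 1371287_at, was under the floor, between 3.08 and 3.31.

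Crmp1, a cytosolic mediator of semaphorin signals in the growth cone, read 10.24 in DMSO, 10.21 with KHS101 at 1.7 uM, 10.01 at 5 uM and 10.20 in the positive control, the narrowest range of the measured members at 0.23. Its difference of -0.05 with retinoic acid and forskolin became 0.10 after centring on the reference genes and 0.03 after centring on their median difference.

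Stmn3, a stathmin of neurons, read 11.13 in DMSO, 11.66 with KHS101 at 1.7 uM, 11.35 at 5 uM and 11.35 in the positive control. The KHS101 1.7 uM array was the highest, 0.52 above DMSO, and no comparison passed 2-fold; the 0.22 of KHS101 at 5 uM became -0.04 after centring on the reference genes. Stmn2, the stathmin known as SCG10 in growth cones, was under the floor on both of its probe sets, between 2.33 and 2.45.

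**Figure D3:**
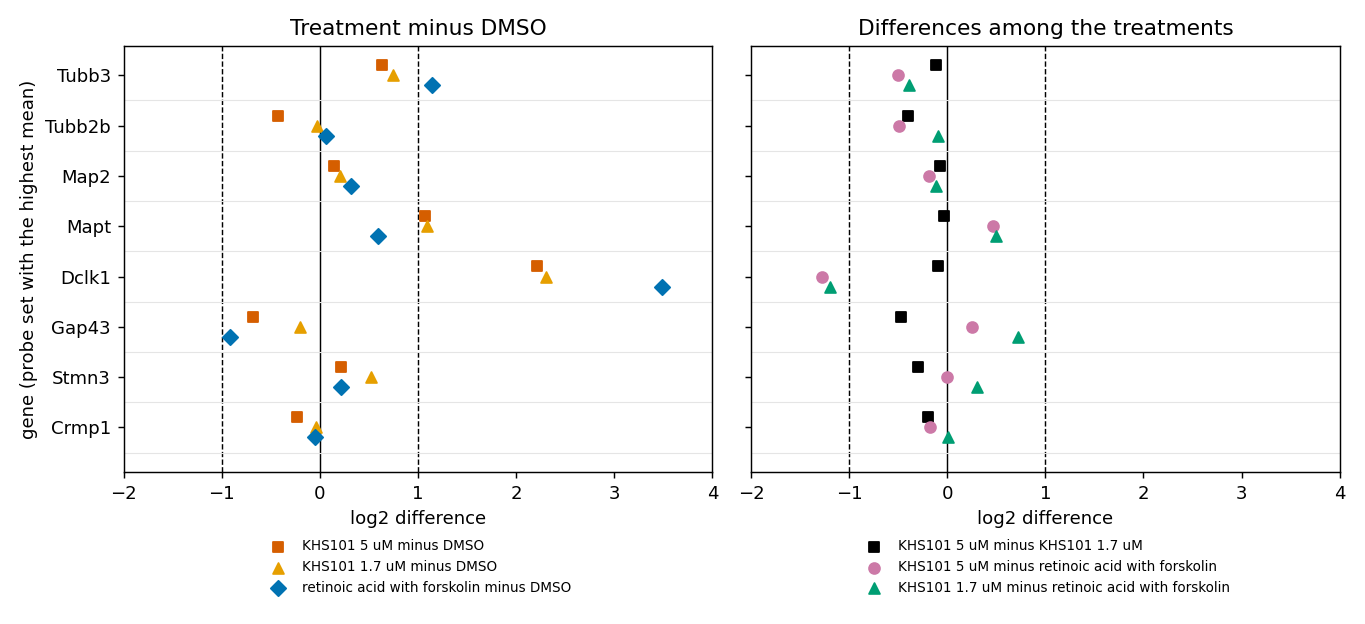
Log2 difference (horizontal axis) of the 8 measured members on the probe set with the highest mean, for each treatment minus DMSO (left) and between treatments (right); dashed lines mark 2-fold. Dclk1 is past 2-fold in 5 of 6 comparisons, Mapt and Tubb3 only against DMSO, and the other members in none.

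The KHS101 concentrations were set against each other to ask whether the members followed the dose. None of the 8 differed by 2-fold, beside 2.54% of 8500 measured genes (0.812% higher and 1.73% lower at 5 uM). All 8 were lower at 5 uM than at 1.7 uM on the probe set used, from -0.03 (Mapt) to -0.47 (Gap43), with a median difference of -0.16, where 51.1% of all measured genes were lower and their median was -0.01. On the second probe set of Mapt, 1368137_at, 5 uM was 0.06 above 1.7 uM. Tubb2b had a difference of -0.40, Stmn3 of -0.30 and Crmp1 of -0.20. For Dclk1 the difference was -0.09, so for this gene the higher concentration was not further from DMSO. On the probe set used, the 5 members above DMSO were all nearer to it at 5 uM than at 1.7 uM. Gap43 (-0.68 against -0.20), Tubb2b (-0.43 against -0.03) and Crmp1 (-0.23 against -0.04) were further below DMSO at 5 uM.

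The next comparison was between KHS101 and the positive control. At 5 uM, 1 of 8 members was lower than with retinoic acid and forskolin and 0 were higher, beside 10.2% and 8.94% of 8606 genes (19.6% and 4.62% after centring on the reference genes). At 1.7 uM, 1 of 8 was lower and 0 higher, beside 5.39% and 5.93% of 8588 genes (9.98% and 3.41% after that centring). The member was Dclk1 each time, 2.43-fold lower at 5 uM and 2.28-fold lower at 1.7 uM. Mapt lay on the other side, 0.47 and 0.50 above retinoic acid with forskolin, and its other probe sets gave 0.88 and 0.65 at 5 uM and 0.81 and 0.75 at 1.7 uM. Gap43 was 0.25 and 0.72 above it, the former turning to -0.17 after centring on the reference genes, and Tubb3 differed from it by -0.50 and -0.39. None of these passed 2-fold.

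The genes with the pattern most like a called member were found by the root mean square difference of the 4 log2 values after each gene's mean was removed, over 8645 other genes and the 4 arrays. For Dclk1 they were Rarb, a retinoic acid receptor (0.231), Nav2, a neuron navigator protein (0.291), and Ak4, an adenylate kinase (0.31). The range of Dclk1 itself was 3.49. Nav2 was at the floor value of 5.00 in DMSO, so its closeness depends on the floor. Rarb read 8.87 in DMSO, 10.84 with KHS101 at 1.7 uM, 10.73 at 5 uM and 11.70 in the positive control. Like Dclk1, Rarb was lowest in DMSO, highest with retinoic acid and forskolin, and close together on the KHS101 arrays. For Mapt they were the creatine transporter Slc6a8 (0.0484), Tmed3 (0.0559) and Trmt1l (0.0641), and for Tubb3 the phospholipase Plcd1 (0.0535), Fkbp14 (0.0557) and Rab40b (0.0697). With 4 arrays, a close pattern carries little information on a link between genes.

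The wider cytoskeleton and growth cone machinery was described with 156 related genes in 9 lists, of which 141 had a probe set. With KHS101 at 5 uM, 9 of 105 measured related genes were higher and 8 lower, 16.2% in all beside 14.3% of all measured genes. With KHS101 at 1.7 uM, 4 of 104 were higher and 3 lower, 6.73% beside 8.63%. With retinoic acid and forskolin, 5 of 104 were higher and 3 lower, 7.69% beside 7.49%. These shares are close to those of all genes, and the medians were 0.01, 0.05 and 0.08. The split by direction depended on which scaling was used. After centring on the median difference of the reference genes, 9 were higher and 8 lower with KHS101 at 5 uM. The split was 4 and 3 at 1.7 uM, and 6 and 3 in the positive control. After centring on the level of the reference genes, 3 were higher and 17 lower with KHS101 at 5 uM. At 1.7 uM 4 were then higher and 4 lower, and in the positive control 9 were higher and 1 lower. Under that centring Camsap1, Ndel1, Nefm, Nrn1, Rufy3 and Klc2 were short of 2-fold with KHS101 at 5 uM, as were Tube1 and Vim in the positive control, where Tubb4a, Mapre2, Camsap2 and Epha4 passed it. The values that follow are on the scale as deposited. Beside the counts of each list below, 6.16% of all measured genes were higher and 8.10% lower with KHS101 at 5 uM. The shares were 4.36% and 4.27% at 1.7 uM, and 4.34% and 3.15% in the positive control.

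**Figure D4:**
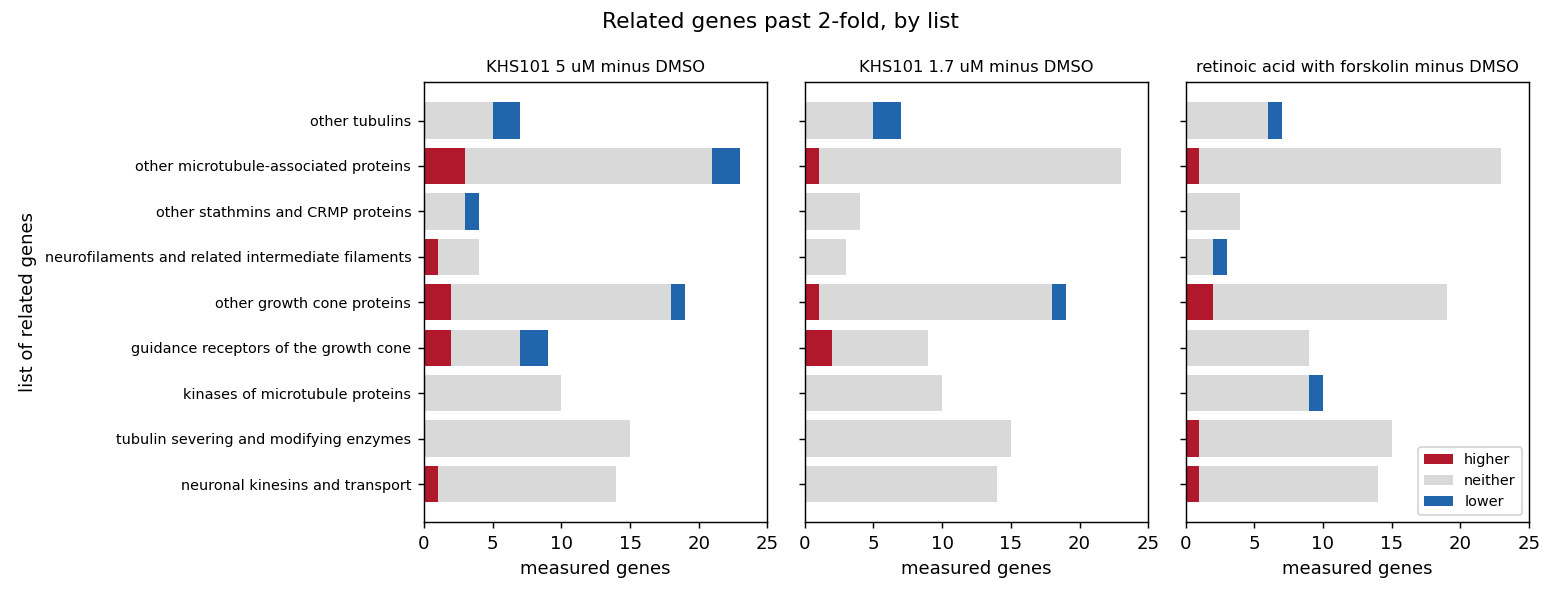
Number of measured genes (horizontal axis) that were at least 2-fold higher, at least 2-fold lower or neither, for 9 lists of related genes (rows) and each treatment against DMSO (panels). Most genes of every list are in the neither class.

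Of 7 other tubulins that were measured, 2 were lower and 0 higher at each KHS101 concentration, with medians of -0.58 at 5 uM and -0.23 at 1.7 uM. Tubb4a, a beta-tubulin abundant in myelinating oligodendrocytes, was 4.04-fold lower at 5 uM and 2.48-fold at 1.7 uM, and 0.89 above DMSO with retinoic acid and forskolin, on an _x_at probe set, a kind that can match several genes. Tube1, the epsilon-tubulin of centrioles, was 2.55-fold and 2.36-fold lower with KHS101 (5 and 1.7 uM) and 2.16-fold lower in the positive control. Tubb2a, which is close to Tubb2b, differed from DMSO by at most 0.17.

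Among 23 other microtubule-associated proteins, 3 were higher and 2 lower with KHS101 at 5 uM, and 1 was higher and 0 lower for each of the other treatments. Tppp, a tubulin polymerisation-promoting protein of oligodendrocytes, was higher in all 3 treatments, by 7.24-fold, 4.04-fold and 4.70-fold from a DMSO value of 5.55. At 5 uM the dynein regulator Ndel1 was 2.38-fold higher and Camsap1, which caps microtubule minus ends, 2.23-fold higher. The plus-end binding genes Mapre2 and Mapre3 were 2.16-fold and 2.10-fold lower there. Map1b, an early axonal protein, was 0.60, 0.78 and 0.65 above DMSO, short of 2-fold. Dclk2, the relative of Dclk1, differed from DMSO by 0.02, -0.02 and -0.04.

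Of 4 measured stathmins and CRMP genes besides the members, 1 was lower with KHS101 at 5 uM and none was called in the other treatments. That gene was Stmn4, 2.24-fold lower, and Stmn1, the stathmin of dividing cells, differed from DMSO by -0.63. Among neurofilaments and related filaments, 1 of 4 was called with KHS101 at 5 uM: Nefm, at least 2.23-fold higher, with DMSO at the floor. Of 3 measured with retinoic acid and forskolin, Vim was 2.16-fold lower and the others, Ina and Nes, differed by 0.05 and -0.69. At 1.7 uM none of 3 was called. Nefl and Nefh, further neurofilament genes, were at the floor on all 4 arrays.

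Of 19 other growth cone proteins, 2 were higher and 1 lower at 5 uM, 1 was higher and 1 lower at 1.7 uM, and 2 were higher with retinoic acid and forskolin. Nrn1 (neuritin) was higher in all 3 treatments, by 2.18-fold, 3.32-fold and 3.56-fold. Gprin1, a G protein partner in neurite growth, was at least 6.22-fold lower with KHS101 at 5 uM, where it was at the floor, and 3.67-fold lower at 1.7 uM. Rufy3 was 2.14-fold higher at 5 uM, and Ncam1 2.05-fold higher with retinoic acid and forskolin. Basp1 and Marcks, membrane proteins often grouped with GAP-43, were between -0.68 and -0.15 from DMSO in all treatments.

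Some guidance receptors were called under KHS101. Of 9 measured, 2 were higher and 2 lower at 5 uM, and 2 were higher at 1.7 uM. With retinoic acid and forskolin 0 of 9 were called. The shares of all measured genes called were 14.3%, 8.63% and 7.49% in this order. Epha4, an ephrin receptor, was 8.89-fold and 5.56-fold higher at 5 and 1.7 uM, and the netrin receptor Unc5b 3.85-fold and 3.68-fold higher. In the positive control Epha4 was 0.89 above DMSO, short of 2-fold, and 1.04 above it after centring on the level of the reference genes. Unc5c was 2.52-fold and Ephb1 2.19-fold lower at 5 uM. All other probe sets of Epha4 and Unc5b above the floor, 2 and 1 of them, differed in the same direction.

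The remaining lists held few called genes. Among 10 kinases of microtubule proteins, none was called with KHS101, and Mark1 was 2.90-fold lower with retinoic acid and forskolin. Among 15 severing and modifying enzymes, none was called with KHS101, and the tubulin deacetylase Sirt2 was 3.04-fold higher with retinoic acid and forskolin. Of 14 kinesin and transport genes, Klc2 was 2.03-fold higher with KHS101 at 5 uM, none was called at 1.7 uM, and the kinesin Kif21a was 3.23-fold higher with retinoic acid and forskolin.

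The neuronal label of the members was set beside markers of cell types. Of 19 neuron markers outside the cytoskeleton, between 7 and 9 were above the floor per array, and Rbfox3, Snap25, Slc17a6, Slc17a7, Grin1, Neurod1 and Tbr1 were at the floor on all 4, as were Dcx and Stmn2. Neuron markers were higher in 3 of 9 cases with KHS101 at 5 uM (Gad1 at least 7.75-fold, Eno2 3.48-fold, Elavl2 2.36-fold), in 2 of 9 at 1.7 uM (Gad1 at least 4.12-fold, Eno2 3.44-fold) and in 0 of 8 with retinoic acid and forskolin. The shares of all measured genes that were higher were 6.16%, 4.36% and 4.34% in this order. The sum of the linear array values of the neuron marker list was 1316 in DMSO, 2404 with KHS101 at 1.7 uM, 2474 at 5 uM and 1539 in the positive control. A few genes can carry such a sum. The median difference of the measured markers from DMSO was 0.05 at 5 uM, -0.02 at 1.7 uM and 0.17 in the positive control. The lowest differences were -0.64, -0.51 and -0.39. Syn1, a synaptic vesicle gene, was above the floor on every array except KHS101 at 5 uM.

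Markers of other cell types differed between the arrays as well. Beside the counts that follow, 6.16% of all measured genes were higher and 8.10% lower with KHS101 at 5 uM. The shares were 4.36% and 4.27% at 1.7 uM, and 4.34% and 3.15% with retinoic acid and forskolin. Of the measured oligodendrocyte lineage markers, 7 of 10 were lower with KHS101 at 5 uM and 2 of 10 at 1.7 uM, and 2 of 11 were higher with retinoic acid and forskolin, with summed linear values of 69783 in DMSO, 47006 at 1.7 uM, 33474 at 5 uM and 90614 in the positive control. Of 6 measured astrocyte markers, 5 were higher with retinoic acid and forskolin and 2 lower with KHS101 at 5 uM (sums 16927, 17357, 13571 and 35577 in the same order of arrays), while Gfap and Aqp4 were at the floor throughout. Of 7 measured progenitor markers, 4 were lower and 1 higher with KHS101 at 5 uM, and 2 lower and 1 higher at 1.7 uM (sums 45680, 29157, 21131 and 54368). Replication and mitosis genes were lower in 16 and 13 of 17 cases with KHS101 (5 and 1.7 uM) and in 2 of 17 in the positive control. Of the fibroblast and meningeal markers, 2 of 2 measured were higher with retinoic acid and forskolin and 1 of 2 at each KHS101 concentration. The 2 were Mgp and Postn, and the sums of the list were 96, 279, 152 and 8701. Mgp, 7.93 above DMSO with retinoic acid and forskolin on the log2 scale, made most of the last sum. Col1a1, Col3a1 and Dcn were at the floor on all arrays. Of 11 microglia and macrophage markers, P2ry12 alone was above the floor, in DMSO and with retinoic acid and forskolin (sums 247, 70, 59 and 407), and of 6 endothelial markers 2 were above it, with retinoic acid and forskolin alone (sums 45, 44, 45 and 150). The part of these cell types in the values of the members was not tested.

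RNA quality was read from the array's control probe sets. The 3′ minus 5′ difference of beta-actin was 1.26 in DMSO, 1.40 with KHS101 at 1.7 uM, 1.54 at 5 uM and 1.37 in the positive control, that of hexokinase was 0.69, 0.80, 0.96 and 0.66, and that of Gapdh was -0.16, -0.14, -0.11 and -0.12. It was highest at 5 uM for all 3, with a narrow range for Gapdh; its part in the values of the members was not tested.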

How the data were processed

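Rat hippocampal progenitor cells were measured on 4 Affymetrix arrays, 1 per group. Log2 values of 31099 probe sets were deposited by the authors. The tools listed, per the submitters' processing notes, are GCRMA and R 2.6.2, with no role stated and no genome build. When each column was sorted, values of the same rank lay within 0.19 of each other, so a change of all genes in 1 direction cannot be seen.

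Array controls were left out. The platform annotation gave 1 gene symbol to 20826 of the other 31042 probe sets, several to 436 and none to 9780; 20758 of the named ones matched RefSeq. Each gene was represented by its probe set of highest mean. Values under log2 = 5 were raised to it, genes with an array above it in a comparison were its measured genes, and differences from the floor are bounds ("at least"). Between 8389 and 8471 genes per array lay above it.

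The members and lists were chosen with earlier results of these data known. Named were all members, up to 3 called genes per related list, direction and comparison with DMSO, the 3 genes most like each called member, and markers where a result needed them; further related genes named with their values (Tubb2a, Map1b, Dclk2, Stmn1, Nes, Ina, Nefl, Nefh, Basp1 and Marcks, and those of the closing section) were chosen after their values were seen. Alternatives were other floors, thresholds, scalings and probe set rules. The calling code was run on simulated data with assumed noise, a check of the code that gives no error rate for these arrays. Python 3.11.15, pandas 2.3.3, numpy 2.4.6 and matplotlib 3.10.9 were used.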

Additional observations from a re-analysis of the deposited data

How the results depend on the processing

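Of the 48 differences of the measured members over 6 comparisons, all 48 kept their side of 2-fold without a floor, with floors of 4 and 6, with quantile normalization, and, as an alternative added after the data were seen, with the mean over probe sets above the floor. Differences that round to 0.00 were given no sign; under quantile normalization Stmn3 (KHS101 5 uM minus positive control) went from -0.00 to 0.02 and Crmp1 (1.7 uM minus positive control) from 0.01 to -0.00. Centring on the median difference of the reference genes, also added, turned 2 small differences. Centring on the level of the reference genes took 2 differences (Mapt under KHS101) below 2-fold and turned 6 small ones, and the mean over all probe sets took 6 (Dclk1 and Tubb3) below it. The number of members called against DMSO (2 for each treatment) became 1 and 1 for KHS101 after centring on the level of the reference genes, and 1, 1 and 0 with the mean over all probe sets, which brings in probe sets at the floor. At 1.5-fold it was 4 for KHS101 at 5 uM, 3 at 1.7 uM and 4 for the positive control, and at 3-fold 1, 1 and 1; without a floor the positive control had 3, Dcx being added. KHS101 against retinoic acid with forskolin had 1 called member at each concentration, and 2 without a floor. The added member was Dcx, whose values all lie under the floor of log2 = 5. The count was 0 with the mean over all probe sets and 0 at 3-fold, and at 1.5-fold 1.7 uM had 2. Related genes called at 1.5-fold numbered 42, 24 and 24 against DMSO, 49 and 25 against retinoic acid with forskolin and 15 between the KHS101 concentrations; at 3-fold they were 5 (KHS101 5 uM) and 4 (positive control) against DMSO, and 8, 3 and 0 in the other comparisons named. Between the KHS101 concentrations the 1 related gene became 2 without a floor, 2 with a floor of 4, 2 with quantile normalization and 0 with a floor of 6. The cause was not tested where none is given. No paired analysis was possible because each group is 1 array, and no replicate could be left out.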

Other observations

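Set against the positive control, some cytoskeleton genes differed at both KHS101 concentrations. The comparisons share the array of retinoic acid with forskolin, and these genes were chosen after their values were seen. Tubb4a was 7.49-fold lower at 5 uM and 4.59-fold lower at 1.7 uM, and the deacetylase Sirt2 4.04-fold and 3.20-fold lower. The plus-end genes Mapre2 and Mapre3 were 4.21-fold and 3.51-fold lower at 5 uM, and 2.53-fold and 2.6-fold lower at 1.7 uM. The adhesion gene Chl1 was 2.92-fold and 2.48-fold lower, and the kinesin Kif21a 2.69-fold and 2.46-fold lower. Higher with KHS101 were the beta-tubulin Tubb6 (2.37-fold and 2.63-fold), the kinase Mark1 (4.63-fold and 3.61-fold), Epha4 (4.79-fold and 2.99-fold), Unc5b (2.62-fold and 2.50-fold) and the progenitor filament gene Nes (2.32-fold and 2.46-fold). After centring on the level of the reference genes, Tubb6 (0.84), Unc5b (0.98) and Nes (0.80) were short of 2-fold at 5 uM, and Nes (0.99) at 1.7 uM, on the log2 scale, and the other genes named here were not. In all, 9 of 105 related genes were higher and 12 lower at 5 uM, and 6 of 104 higher and 9 lower at 1.7 uM, which is 20.0% and 14.4% called beside 19.2% and 11.3% of all measured genes. After that centring, 2 were higher and 26 lower at 5 uM, and 4 higher and 12 lower at 1.7 uM. Centred on the median difference of the reference genes instead, 8 were higher and 13 lower at 5 uM. At 1.7 uM 6 were then higher and 9 lower.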
